A study of Mus musculus with 6 samples.

Results

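The OAS genes measured here were Oas1a, Oas1g, Oas2, Oas3, Oasl1 and Oasl2, which were picked by symbol as 6 of the 18268 genes in the expression table. RNA-seq was performed on colorectal tissue of adult male C57BL/6 mice, all of which received dextran sulfate sodium (DSS) for 7 days, a polysaccharide that damages the colonic epithelium and so causes colitis. By gavage, 3 of these mice also received berberine (BBR), a plant alkaloid, and 3 received sulfasalazine (SASP), an aminosalicylate prodrug, each for 6 days. Colitis mice without a drug and healthy mice were not analysed here, so each difference is between the drugs and cannot be assigned to either of them. The labels do not say whether the samples came from separate experiments, and p-values measure the spread between these samples. The authors call samples rectal in their BBR profiling and colon in their SASP profiling. A difference in gut region could therefore not be told apart from the drug.

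The 2′-5′-oligoadenylate synthetases (OAS) bind double-stranded RNA, a sign of viral infection, and then join ATP into short 2′-5′-linked oligoadenylates. These act as second messengers of the antiviral state. OAS genes are classical interferon-stimulated genes, switched on through a promoter motif called the interferon-stimulated response element (ISRE). Oas1a and Oas1g encode small synthetases with a lone synthetase unit, whereas Oas2 and Oas3 encode larger proteins built from repeats of that unit. Oasl1 and Oasl2 encode OAS-like proteins that end in ubiquitin-like domains; OASL1 is known as a repressor of Irf7 translation.

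Sequences before an annotated start of each gene are shown first because the ISRE is the element through which interferon is known to induce this family. RefSeq windows of the 250 bases before the start (GRCm38.p6) were found for 5 of the 6 members, all but Oas2. Each start is that of the window and can lie inside the outer bounds of the gene. For Oasl1 the window began at 114922990 and the gene at 114923143, so part of these 250 bases lay within the gene. The ISRE core was searched as GAAANNGAAA and the gamma-activated sequence (GAS) as TTCNNNGAA, each on both strands. Oas1a and Oas1g each held 2 ISRE matches that overlap each other, Oas3 held 1, and Oasl1 and Oasl2 held none in this window. Of 32851 RefSeq windows of the same length, 2.98% held an ISRE match and 7.02% a GAS match. The only GAS match was in Oas1a, at -98 to -90, and it did not overlap the ISRE matches. The stretches that hold the ISRE matches follow, with the matched bases in capitals and each printed along the gene's own minus strand of chromosome 5. They lie at chr5:120907526-120907555 for Oas1a, chr5:120887614-120887643 for Oas1g and chr5:120777715-120777744 for Oas3. The outer bound of the Oas1a gene is at 120907544, so most of its matched bases lie within the gene.
Oas1a: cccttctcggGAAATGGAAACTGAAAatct
Oas1g: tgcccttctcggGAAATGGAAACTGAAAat
Oas3: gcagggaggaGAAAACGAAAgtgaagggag

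Oas1a and Oas1g carried the same matched run of bases, and their upstream windows were 86.9% identical over 244 aligned bases. Their coding sequences (GENCODE, GRCm38) were both 1101 bases long and differed at 36 positions, an identity of 96.7%. Of these differences, 16 lay in the 60 coding bases from 468 to 527, counted from 1 at the start codon. That stretch is shown because, within the coding sequence, it holds the most differences by which reads could tell the genes apart. The differing bases are in capitals, and the untranslated parts were not searched for such a stretch.
Oas1a: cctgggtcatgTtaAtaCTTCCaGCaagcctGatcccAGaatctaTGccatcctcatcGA
Oas1g: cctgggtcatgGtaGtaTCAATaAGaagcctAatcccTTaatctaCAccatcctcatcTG

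The longest identical coding run was 231 bases. Of all 50-base windows of the Oas1a transcript, 57.6% were also found in Oas1g, and for Oas1g 54.1% were found in Oas1a. For reads of this length, the division of reads between these genes is therefore uncertain. Oas2, Oasl1 and Oasl2 shared no such window with any other transcript, and Oas3 shared 0.792%. Coding identity between all other pairs of members was 60.5% to 66.4%.

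All 6 OAS genes were lower in BBR mice than in SASP mice, with mean levels that differed from 1.80-fold for Oas1g to 14.5-fold for Oas3. Levels are given as FPKM, in which fragments are divided by transcript length and by sequencing depth, so that levels of different genes can be compared. Fold changes are BBR minus SASP on the log2(FPKM + 1) scale, which understates changes of low genes. P-values are from limma with Benjamini-Hochberg adjustment over 12072 tested genes. The 6 members that were lower with BBR compare with 5.04% of all tested genes that were lower and 3.82% that were higher at an adjusted p under 0.05. In all 6 members every BBR value was under every SASP value, which was true of 16.6% of tested genes. The median log2 fold change of the 6 members was -2.11, and that of all tested genes was 0.10. In bulk tissue, fewer cells of a type and less RNA per cell cannot be told apart.

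Oas1a, a synthetase gene of the OAS1 type, had 71.9, 55.6 and 76.5 FPKM in BBR mice 1 to 3 and 151, 99.5 and 141 FPKM in SASP mice 1 to 3. The highest BBR mouse stayed under the lowest SASP mouse. The means were 68.0 ± 11.0 and 131 ± 27.5 FPKM (SD, n = 3 each), and the log2 fold change was -0.92 (SE 0.19, adjusted p = 0.0373, limma).

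Oas1g, its near-identical neighbour, had 26.3, 19.9 and 24.9 FPKM in the BBR mice and 49.2, 33.0 and 45.8 FPKM in the SASP mice. The means were 23.7 ± 3.35 and 42.7 ± 8.55 FPKM (SD, n = 3 each), for a log2 fold change of -0.81 (SE 0.18, adjusted p = 0.0411, limma). Since reads may be exchanged between Oas1a and Oas1g, their values were also summed, a choice made after seeing the data. The sum was 98.2, 75.5 and 101 FPKM in BBR mice and 201, 132 and 187 FPKM in SASP mice. The summed level was also lower with BBR, with a log2 fold change of -0.90 (SE 0.19, adjusted p = 0.0385, limma).

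Oas2, which encodes a synthetase of medium size, was near the limit of the filter in BBR mice, at 1.58, 0.66 and 1.34 FPKM. In SASP mice it had 15.4, 7.70 and 14.8 FPKM, so the lowest SASP mouse stood well above every BBR mouse. The means were 1.19 ± 0.477 and 12.6 ± 4.30 FPKM (SD, n = 3 each), a 10.6-fold higher mean with SASP and a log2 fold change of -2.61 (SE 0.29, adjusted p = 0.00792, limma).

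Oas3, which encodes the largest synthetase, behaved likewise. It had 1.99, 1.06 and 1.55 FPKM in BBR mice and 28.9, 10.7 and 27.3 FPKM in SASP mice. SASP mouse 2 had much less than the other SASP mice but still more than any BBR mouse. The means were 1.53 ± 0.465 and 22.3 ± 10.1 FPKM (SD, n = 3 each), and the log2 fold change was -3.10 (SE 0.37, adjusted p = 0.00891, limma). With a pseudocount of 0.01 FPKM in place of 1, the log2 fold change was -3.77 for Oas3 and -3.42 for Oas2.

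Oasl1, the OAS-like gene without synthetase activity, had 14.2, 11.0 and 13.4 FPKM in BBR mice and 58.2, 24.8 and 47.4 FPKM in SASP mice. The BBR mice lay close together, whereas the SASP mice spread widely. The means were 12.9 ± 1.66 and 43.5 ± 17.0 FPKM (SD, n = 3 each), for a log2 fold change of -1.61 (SE 0.30, adjusted p = 0.0262, limma).

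Oasl2, the OAS-like gene with the highest level in SASP mice, had 20.7, 8.78 and 12.8 FPKM in BBR mice and 194, 82.1 and 165 FPKM in SASP mice. The means were 14.1 ± 6.04 and 147 ± 58.0 FPKM (SD, n = 3 each), a 10.4-fold higher mean with SASP. Its log2 fold change of -3.28 (SE 0.39, adjusted p = 0.00891, limma) was the largest of the 6 on this scale, next to that of Oas3.

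**Figure D1:**
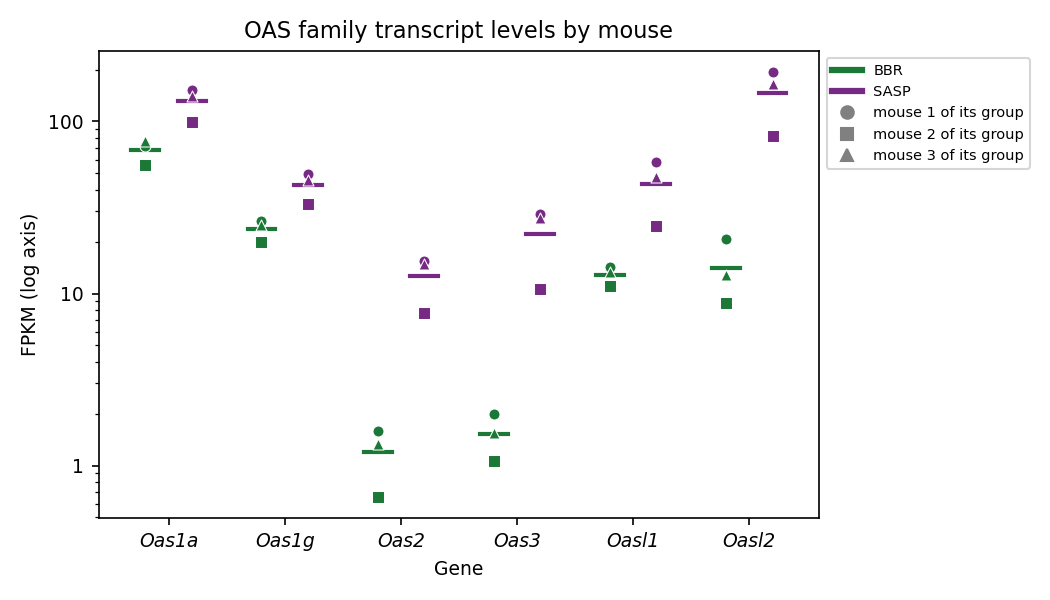
FPKM of the 6 OAS genes by mouse (log axis), with BBR in green, SASP in purple, one point per mouse and the group mean as a bar. The groups are apart for each OAS gene, by most for Oas2, Oas3 and Oasl2.

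The calls depended on a few of the 6 mice. The log2 fold change of every member stayed below 0 in all 15 alternative settings, between -3.77 and -0.60. Without SASP mouse 1, none of the 6 members passed (adjusted p = 0.0520 to 0.159, limma), and without SASP mouse 3 none passed either (adjusted p = 0.0523 to 0.148), although 6 of 6 had an unadjusted p under 0.05 each time. In these fits the calls over the whole table fell from 1069 to 59 and 51. Without BBR mouse 1 or BBR mouse 2, Oas2, Oas3 and Oasl2 kept their calls and Oas1a, Oas1g and Oasl1 lost them. The whole table then had 131 calls without BBR mouse 1 and 371 without BBR mouse 2. All 6 passed without BBR mouse 3 or SASP mouse 2, where the whole table had 4018 and 405 calls.

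Marker lists of other tissue layers are given beside these values. All 8 smooth muscle markers, such as Acta2, Myh11 and Des, had log2 fold changes above 0 (median 1.34), though none passed the test; of all 12072 tested genes, 4735 lay below 0. Their summed level was 3158, 3362 and 7350 FPKM in BBR mice 1 to 3 and 855, 2597 and 1919 FPKM in SASP mice 1 to 3. Among SASP mice, mouse 1 had the least muscle signal and the highest OAS sum, and mouse 2 the reverse. The BBR mice did not show this order, since mouse 3 had the most muscle signal and an OAS sum of 131 FPKM, between 97.0 FPKM in mouse 2 and 137 FPKM in mouse 1. Of 7 stroma markers 3 were higher with BBR (Col1a1, Col3a1 and Thy1), and the list's sums were 244 to 338 FPKM with BBR and 117 to 201 FPKM with SASP.

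With the smooth muscle level as a covariate, none of the 6 members passed (adjusted p = 0.124 to 0.303, limma), 5 of 6 had an unadjusted p under 0.05, and their median log2 fold change was -1.67. In that fit 18 genes of the whole table passed, against 1069 without the covariate. The part of the tissue layers in the drug difference was not tested beyond this fit.

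**Figure D2:**
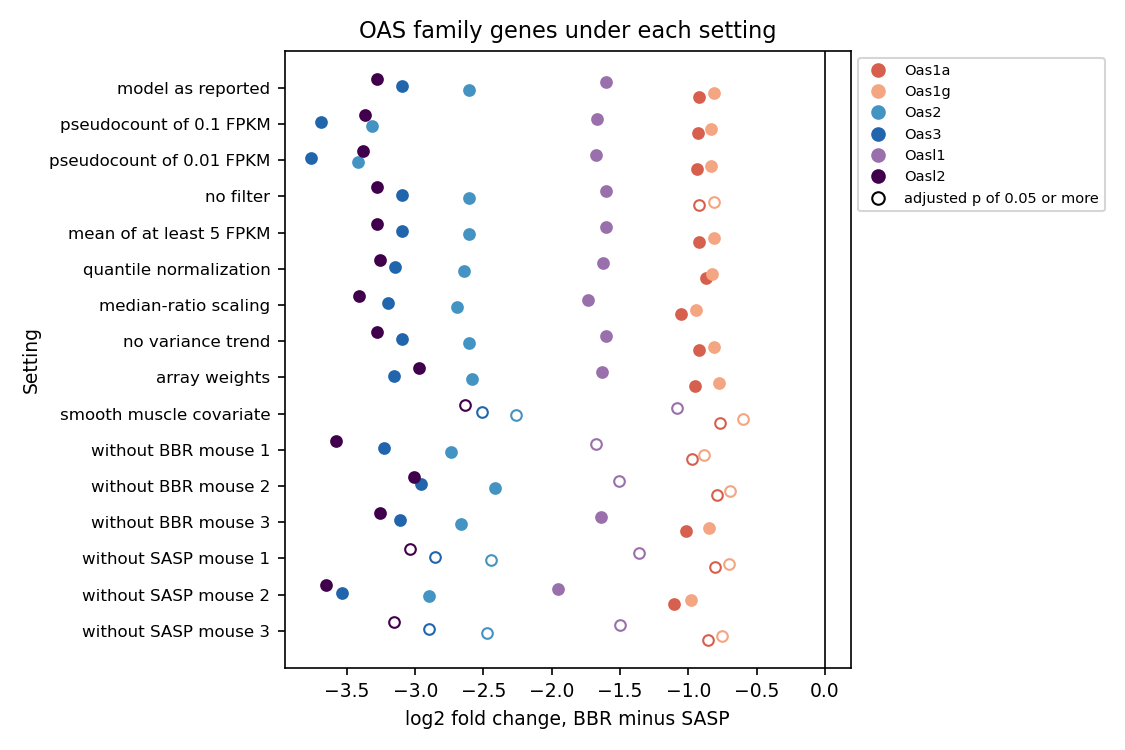
Log2 fold change (BBR minus SASP) of each OAS gene under the reported model and 15 alternatives, with filled points for an adjusted p under 0.05 and open points otherwise. Every point lies left of 0, and the points are all open with the smooth muscle covariate and without SASP mouse 1 or 3.

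Epithelium markers were abundant in both groups, as the labelled tissue calls for, and leukocyte markers were low. The 10 colonic epithelium markers summed to 6502 to 9025 FPKM with BBR and 6340 to 6667 FPKM with SASP. Epcam, a pan-epithelial gene, had means of 990 and 969 FPKM, and of the 10 markers Vil1 was lower and Krt18 and Cdx2 were higher with BBR. Krt20 (means of 360 with BBR and 773 FPKM with SASP) and Car1 (1602 and 417 FPKM) had no overlap between the groups. Both missed the threshold (adjusted p = 0.0613 and 0.0950, limma). The 10 leukocyte markers summed to 9.29 to 20.0 FPKM with BBR and 15.9 to 31.8 FPKM with SASP. Of these, 6 passed the filter and none passed the test, the nearest being Cd79a of B cells (log2 fold change -1.97, adjusted p = 0.0716). Plasmacytoid dendritic cells are potent interferon producers; their markers Siglech, Ccr9 and Cox6a2 stayed at 0 to 0.65 FPKM in the 6 mice. Klk1 of the same list had 649 to 1088 FPKM and is therefore no marker of these cells in this tissue.

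The order of the 6 genes by level was different in the groups. In BBR mice Oas1a was highest, followed by Oas1g, Oasl2, Oasl1, Oas3 and Oas2, and the ranges of Oas1g and Oasl2, of Oasl2 and Oasl1 and of Oas3 and Oas2 overlapped. In SASP mice Oasl2 was highest, followed by Oas1a, Oasl1, Oas1g, Oas3 and Oas2. There the ranges of Oasl2 and Oas1a, of Oasl1 and Oas1g, of Oasl1 and Oas3 and of Oas3 and Oas2 overlapped.

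Oas1a thus made up 52.7%, 57.3% and 58.6% of the summed OAS FPKM in BBR mice 1 to 3 and 30.5%, 38.6% and 32.0% in SASP mice. The share of Oasl2 was 15.1%, 9.05% and 9.80% in BBR mice and 39.0%, 31.9% and 37.4% in SASP mice. The summed level itself was 97.0 to 137 FPKM with BBR and 258 to 497 FPKM with SASP. Oasl1 kept a share near 10.3% to 11.3% with BBR and 9.63% to 11.7% with SASP, so the groups overlapped for it.

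Ratios within a library do not depend on its scaling. The log2 ratio of each gene to Oas1a was compared between the groups, for 5 ratios chosen after the levels were seen. The ratio of Oas1g to Oas1a was -1.52 ± 0.09 with BBR and -1.61 ± 0.02 with SASP (SD, n = 3 each), a difference of 0.10 (exact permutation p = 0.2). The ratio to Oas1a was lower with BBR by a mean log2 difference of -2.50 for Oas2, -2.84 for Oas3, -2.45 for Oasl2 and -0.74 for Oasl1. For each of these 4 the groups did not overlap, and the two-sided exact permutation p was 0.1, the smallest that 3 against 3 mice can give (0.125 after adjustment over the 5 ratios). Differences among Oas2, Oas3, Oasl1 and Oasl2 were not tested.

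The SASP mice also differed among themselves. SASP mouse 1 was highest, mouse 3 next and mouse 2 lowest in all 6 members, an order found in 14.8% of tested genes. In BBR mice, mouse 2 was lowest in all 6 members, which was true of 16.2% of tested genes. These orders were read after the values were seen, and the 6 genes of 1 library are not independent of each other.

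**Figure D3:**
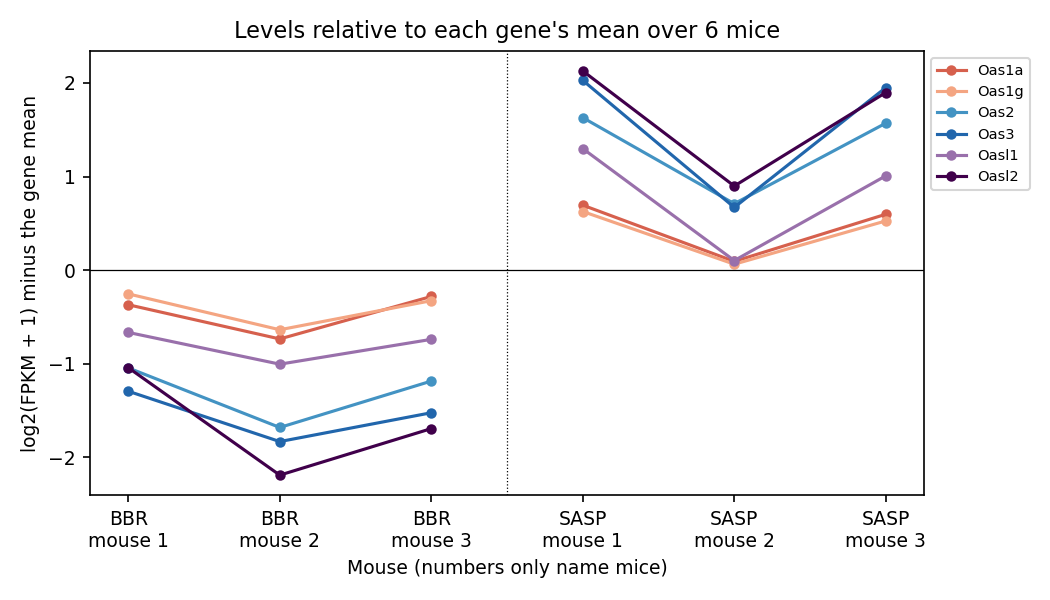
Level of each OAS gene in each mouse, as log2(FPKM + 1) minus that gene's mean over the 6 mice. The OAS lines take a like shape within each group, dipping in BBR mouse 2 and SASP mouse 2, with wider gaps between the groups for Oas2, Oas3 and Oasl2.

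Of 3 further genes tied to the oligoadenylate pathway, 1 was lower with BBR. This was Abce1, best known for recycling ribosomes. Abce1 had 14.0, 15.0 and 15.0 FPKM in BBR mice and 22.0, 25.2 and 23.9 FPKM in SASP mice. Its log2 fold change was -0.66 (SE 0.10, adjusted p = 0.0180, limma). Pde12 and Akap7, which encode enzymes that degrade oligoadenylates, had overlapping groups and log2 fold changes of -0.02 (adjusted p = 0.967) and -0.04 (adjusted p = 0.815).

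The other Oas1 paralogs were scarce. Of 6 such genes 5 were listed, and Oas1b was not analysed here. Oas1c had 1.36 to 2.02 FPKM in BBR mice and 1.33 to 1.63 FPKM in SASP mice, a log2 fold change of 0.16 (adjusted p = 0.479, limma). Oas1d, Oas1e, Oas1f and Oas1h stayed under 1 FPKM in each of the 6 mice and were not tested.

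The OAS genes sit on chromosome 5 of GRCm38.p6 in a pair of clusters, Oas1 to Oas3 in one and Oasl1 with Oasl2 in the other. Among the 3 nearest tested protein-coding genes on each side of both clusters, 12 in all, none was lower with BBR and 1 was higher (Iqcd, means of 2.90 and 0.677 FPKM, adjusted p = 0.0167, limma). The other 11 had log2 fold changes from -0.11 to 0.74. Of all tested genes 5.04% were lower and 3.82% higher, so the counts among 12 neighbours cannot be told from those shares. Neighbours were chosen after the data were seen.

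Pathway genes around the family were grouped by their role. Over 27 tested genes of 6 lists, 12 were lower with BBR, none was higher, and the median log2 fold change was -0.53. The count fell to 5, 3 and 1 without BBR mouse 1, SASP mouse 1 and SASP mouse 3, and to 0 with the smooth muscle covariate (limma; 14 of 27 had an unadjusted p under 0.05), while the calls over the whole table were 131, 59, 51 and 18. Pathway genes called higher numbered 6 without BBR mouse 3, 7 with array weights and 1 with quantile normalization. Without BBR mouse 3, 4018 of all 11878 tested genes were called, of which 1369 were lower. With array weights 7126 of 12072 were called (2490 lower), and with quantile normalization 1737 (994 lower). Many genes of any kind were thus called higher in these fits. A gene under 1 FPKM in every BBR mouse passes the filter only through the SASP mice, so it can only be lower with BBR. Cgas was such a gene, at 0.36 to 0.65 FPKM in BBR mice and 1.24 to 1.83 FPKM in SASP mice.

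No interferon ligand or receptor gene passed the test. Of 15 such genes 7 were listed and 6 passed the filter, all of them receptor genes. Their log2 fold changes ran from -0.10 for Ifnar2, a chain of the type I interferon receptor, to 0.45 for Ifngr2, a chain of the interferon gamma receptor (adjusted p = 0.0734). Ifng, which encodes interferon gamma, was listed at 0 in all 3 BBR mice and at 1.19, 0.30 and 0.21 FPKM in SASP mice 1 to 3, too low for the filter. The other 8 ligand genes, of the type I and type III interferons, were not analysed here.

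Of 5 tested signal transducers 1 was lower with BBR. The kinases Jak1, Jak2 and Tyk2, which sit at the receptors, had log2 fold changes of 0.16 to 0.26 and did not pass. The transcription factor gene Irf1, itself induced by interferon, was lower, with means of 126 and 412 FPKM and a log2 fold change of -1.68 (adjusted p = 0.00478, limma). Irf7, whose translation OASL1 restrains, had means of 57.4 and 146 FPKM with no overlap, but its log2 fold change of -1.30 missed the threshold (adjusted p = 0.0621).

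All 3 feedback genes were lower with BBR than with SASP. Usp18, which blocks the type I receptor, had means of 1.02 and 17.7 FPKM (log2 fold change -3.02, adjusted p = 0.0163, limma). Among BBR mice, Usp18 reached 1 FPKM in mouse 1 alone (1.35, 0.73 and 0.99 FPKM), so it needed SASP mice to pass the filter. Socs1, an inhibitor of the JAK kinases, had 3.39 and 31.4 FPKM (-2.94, adjusted p = 0.0132). Isg15, a ubiquitin-like modifier, had 9.98 and 110 FPKM (-3.35, adjusted p = 0.00891). These changes were of the size of those of Oas2, Oas3 and Oasl2, and SASP mouse 2 was again the lowest SASP mouse in each of the 3 genes.

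Among the other genes that respond to double-stranded RNA or to nucleic acids, 7 of 9 tested genes were lower with BBR. Eif2ak2, the gene of the kinase PKR that halts translation, had means of 12.2 and 27.3 FPKM (log2 fold change -1.10, adjusted p = 0.00558, limma). Adar, whose product edits double-stranded RNA, had 14.0 and 23.8 FPKM (-0.71, adjusted p = 0.0200). Zbp1, a sensor of Z-form nucleic acids, had the largest difference of this list, with means of 35.9 and 209 FPKM (-2.69, adjusted p = 0.0285).

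The sensors Tlr3, Dhx58 and Ifih1 had log2 fold changes of -1.12 (adjusted p = 0.00826), -1.54 (adjusted p = 0.0149) and -0.58 (adjusted p = 0.0426). Cgas, which encodes a sensor of cytosolic DNA, was low in both groups (0.523 and 1.61 FPKM, -0.77, adjusted p = 0.0353). Ddx58, which encodes RIG-I, missed the threshold (-0.53, adjusted p = 0.113), as did Mavs, the adaptor of the RNA helicases (0.11, adjusted p = 0.679).

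**Figure D4:**
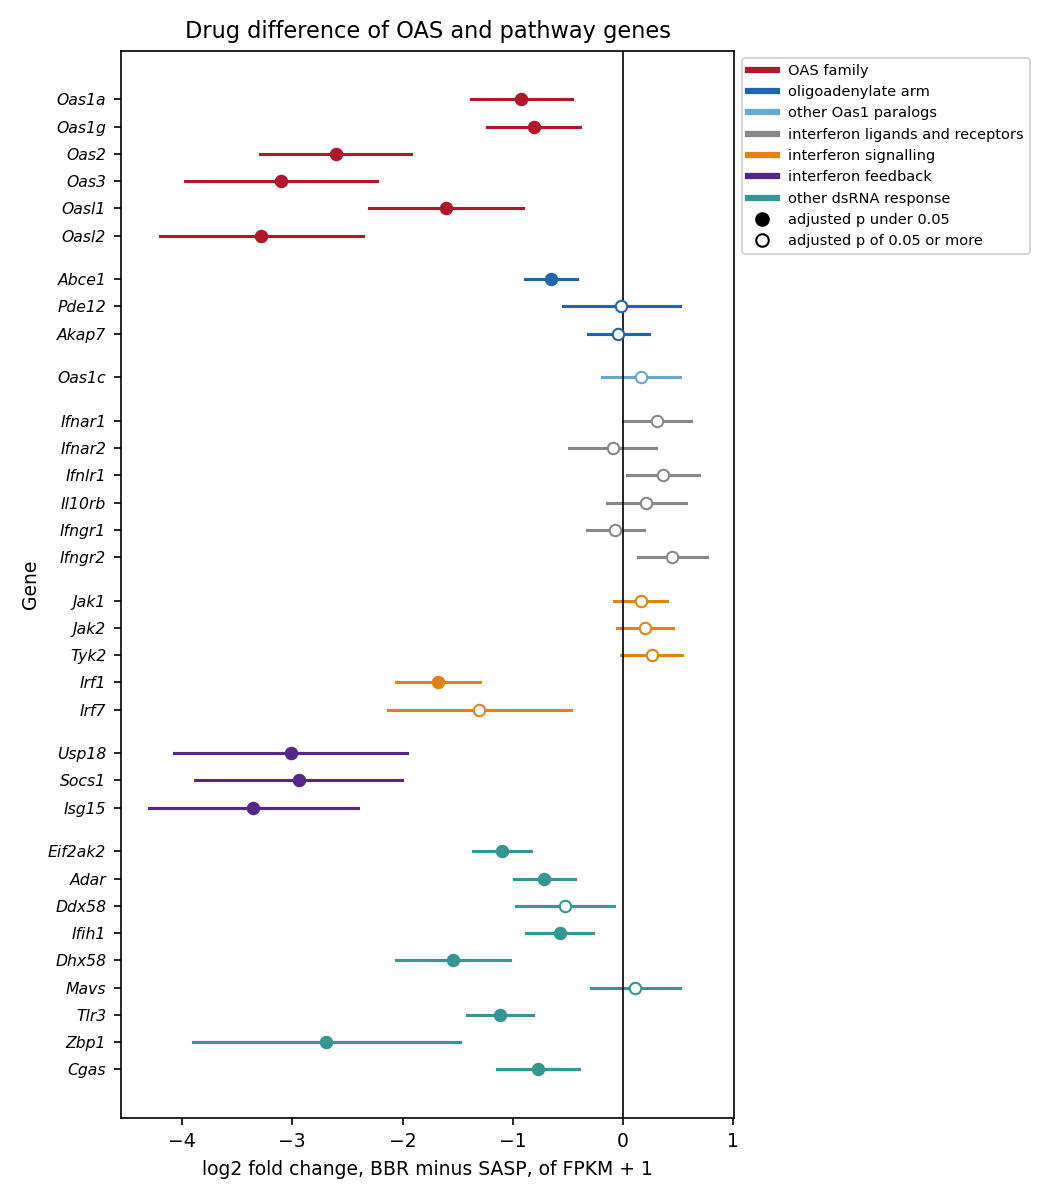
Log2 fold change (BBR minus SASP) of the OAS genes and 27 pathway genes, with 95% limma intervals, one row per gene, coloured by list. The OAS and feedback genes lie left of 0, whereas Oas1c, the receptors and the JAK kinases lie between -0.10 and 0.45, with open points.

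Other interferon-induced families are given side by side. Of the IFIT and viperin genes 4 of 7 tested were lower with BBR, with a median log2 fold change of -1.69. Of the immunity-related GTPases 8 of 8 were lower, with a median of -5.35. Of these 8, Gm12250 stayed at 0.38 to 0.86 FPKM in BBR mice and so passed the filter only through the SASP mice. Tgtp1 (0.15, 0.15 and 1.14 FPKM in BBR mice) and Tgtp2 (1.21, 1.04 and 0.48 FPKM) also needed SASP mice to pass. The medians were -2.11 for the OAS family and -5.35 for these GTPases, with Oasl2, the OAS gene with the largest change on the log2(FPKM + 1) scale, at -3.28.

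The genes whose centred log2 profile over the 6 samples lay nearest to the mean OAS profile were Ube2l6, Psmb8, Gm4070, Rnf213 and Sp110. Their root mean square differences from it were 0.15, 0.17, 0.18, 0.18 and 0.19 on the log2 scale, beside a median of 1.15 over all tested genes. The members themselves stood farther from their own mean, from 0.24 for Oasl1 to 0.64 for Oasl2. Ube2l6, which encodes the ISG15-conjugating enzyme, had 11.0, 9.23 and 11.9 FPKM in BBR mice and 74.3, 31.9 and 64.5 FPKM in SASP mice. Psmb8, which encodes an immunoproteasome subunit, had 42.5, 31.4 and 42.0 FPKM in BBR mice and 263, 102 and 242 FPKM in SASP mice. Both were lowest in mouse 2 of each group, as the OAS genes were, which their choice by profile over these same samples made likely. The nearest pair of members was Oas1a and Oas1g (0.08), which share reads, and the next was Oas3 and Oasl2 (0.22).

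Read depth limited the lowest values. The table gives no read counts, so depth was estimated from 28 to 50 genes per library that were above 0 in that library only. Their longest transcripts were between 500 and 1500 bases. With each of these values taken as 1 read, the median put the depth at about 16600000 to 18300000 reads. Whether each stood for 1 read was not tested. On that estimate Oas2 rested on about 43 reads in BBR mouse 2 and 1100 in SASP mouse 1, and Oasl2 on about 460 and 11000. Between 11518 and 12307 genes had at least 1 FPKM in each library, and any pair of libraries shared at most 0.389% of their values over tested genes.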

How the data were processed

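The treatment labels gave the groups, and numbers within a group follow deposit order and only name a mouse. According to the authors, ribosomal RNA was depleted, single-end reads were sequenced, and FPKM per gene was computed with RSEM after alignment with Bowtie2. The labels name an Illumina kit instead. The authors call the tissue rectal where they profile BBR and colon where they profile SASP. The submitters' processing notes name Bowtie2 2.2.5, RSEM 1.2.12 and build mm9; the annotation is not given in the sources used here. RSEM divides reads that fit several genes, which leaves close paralogs uncertain.

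The deposited FPKM were put on a log2(FPKM + 1) scale. Genes with at least 1 FPKM in at least 3 of 6 samples were tested (12072) with limma 3.58.1 in R 4.3.3, with empirical Bayes moderation, a mean-variance trend and two-sided Benjamini-Hochberg adjusted p-values (threshold 0.05). The procedure was tested on simulated data. Ratios used an exact permutation test in SciPy 1.17.1. Promoter windows and gene order came from RefSeq GRCm38.p6 and transcripts from GENCODE on GRCm38, which differ from mm9, so no gene coordinates are given in mm9. The members and lists were chosen with earlier results of these data known, and some listed genes are not reported here and were left out of the counts, whatever their values. The text names all 6 members, each pathway gene past the threshold, each listed gene of the oligoadenylate pathway and the 5 genes nearest in profile; other genes were named after their values were seen. Alternatives covered the pseudocount, filter, scaling, variance trend, array weights, a smooth muscle covariate (the mean log2 level of its markers) and leaving out each mouse.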

Additional observations from a re-analysis of the deposited data

How the results depend on the processing

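In 15 alternative settings the log2 fold changes of the 6 OAS genes stayed below 0. The number called lower (6) was 0 with the smooth muscle covariate and 0 to 6 on leaving out each mouse, and Oas1a and Oas1g also missed the threshold with no filter (adjusted p = 0.0603 and 0.0644, limma), where 18260 genes were tested. The median log2 fold change was -1.67 with the covariate. The pathway genes called lower or higher (12) numbered 22 with array weights (15 lower, 7 higher), 0 with the covariate, and 1 to 18 on leaving out a mouse. Calls over the whole table ranged from 18 with the covariate to 7126 with array weights, and from 51 to 4018 on leaving out a mouse, against 1069 as reported. Median-ratio scaling moved the median of all genes from 0.10 to -0.02. The causes were not tested. No paired analysis was possible because the labels give no replicate numbers shared between the groups.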
